A study of Zea mays with 12 samples.

Results

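ANT1, ANT2, adk1 and akin1 are 4 maize genes that were taken by their symbols from a table of 99 genes. ANT1, ANT2 and adk1 are named for moving or interconverting adenine nucleotides, and akin1 for a protein kinase complex that responds to low energy. All 4 passed the filter on low values that 76 of the 99 genes passed. The embryos, from maize (Zea mays) seeds in the germination period, were sampled after 2 h of imbibition in germination paper and came from 4 groups of 3 biological replicates: Mo17, which the labels call sensitive to low temperature, at 10 °C and at 25 °C, and B73, which they call resistant, at 10 °C and at 25 °C. The 25 °C condition is called normal. Both lines are inbred, and each stands for its kind alone, so a difference between them is a difference between 1 sensitive and 1 resistant line.

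A seed that takes up water restarts respiration within a short time, and mitochondrial ADP/ATP carriers of the inner membrane then exchange ATP made in the matrix for ADP from the cytosol. Adenylate kinase keeps ATP, ADP and AMP in balance by moving a phosphate between adenine nucleotides, and does so in the cytosol, mitochondria and plastids. SnRK1, the plant counterpart of yeast SNF1 and animal AMPK, is a protein kinase complex that responds to low energy by restraining growth and favouring catabolism. Its regulatory βγ subunit carries the domains related to yeast Snf4.

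ANT1 and ANT2 are described in the deposited table as mitochondrial ADP,ATP carrier proteins 1 and 2. ANT1 lies on chromosome 5 at 208984579 to 208987524 and ANT2 on chromosome 4 at 166706687 to 166709753, both on the plus strand. Starts and ends are those of the deposited table, in B73 RefGen_v4, and chromosome numbers were looked up for the same genes in RefSeq's table of a later B73 assembly. Their gene ontology terms in the table name the ribosome and translation, which do not match their descriptions. adk1, on chromosome 6 at 2462783 to 2465604 on the minus strand, is described only as an uncharacterized protein. It is annotated with adenylate kinase activity and with the chloroplast stroma. akin1, on chromosome 1 at 305008280 to 305016463 on the plus strand, is described as AKINbetagamma-1 protein kinase, a name of the regulatory βγ subunit of SnRK1 and not of its catalytic subunit. Its gene ontology terms include the regulation of protein kinase activity and the response to glucose starvation, while its pathway term, aminoacyl-tRNA synthesis, does not belong to such a protein. The table holds 1 value per gene and library, so transcripts, exons and UTRs of a gene are not told apart.

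Values are in FPKM, which divides a gene's fragments by its length and by the depth of the library. Dividing each library's counts by its FPKM gave relative depths between 0.817 and 1.08, and absolute depth is unknown. Libraries of a group correlated at 0.969 to 0.997 across the tested genes, which are not independent replicates. The lowest values belonged to B73 10 °C replicate 1, which stood apart from its group. As a check of the tissue, Agpsemzm, the embryo form of the small subunit of ADP-glucose pyrophosphorylase, stood at 92.9 to 102 FPKM in Mo17 and 122 to 149 FPKM in B73, and it was called lower in Mo17 at both temperatures (log2 difference -0.39 at 10 °C and -0.47 at 25 °C, edgeR quasi-likelihood, adjusted p = 0.0013 and 0.000329). Of the endosperm markers, ae1 was listed at 0 in all 12 libraries, but the table describes it only as ae1 protein. ae1_1, described as starch-branching enzyme 2, stood at 2.30 to 4.36 FPKM in Mo17 and 0.33 to 0.70 FPKM in B73. These genes moved with the line, like ANT1, adk1 and akin1 below, and their part in those differences was not tested. Further endosperm and aleurone markers were not analysed here. In embryos measured in bulk, fewer cells of a type and less RNA per cell cannot be told apart.

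The carriers were the abundant members and the other 2 genes were of middle rank. By mean FPKM over a group, ANT1 was the 5th or 6th and ANT2 the 9th or 10th of the 99 genes in every group. akin1 ranked 27th and 28th in Mo17 at 10 °C and 25 °C and 33rd in B73 at either temperature. adk1 ranked 47th and 48th in Mo17 at 10 °C and 25 °C, against 37th and 36th in B73 at 10 °C and 25 °C. Since FPKM is a level per length, these orders can be compared between genes, as far as the lengths used by the authors hold.

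**Figure D1:**
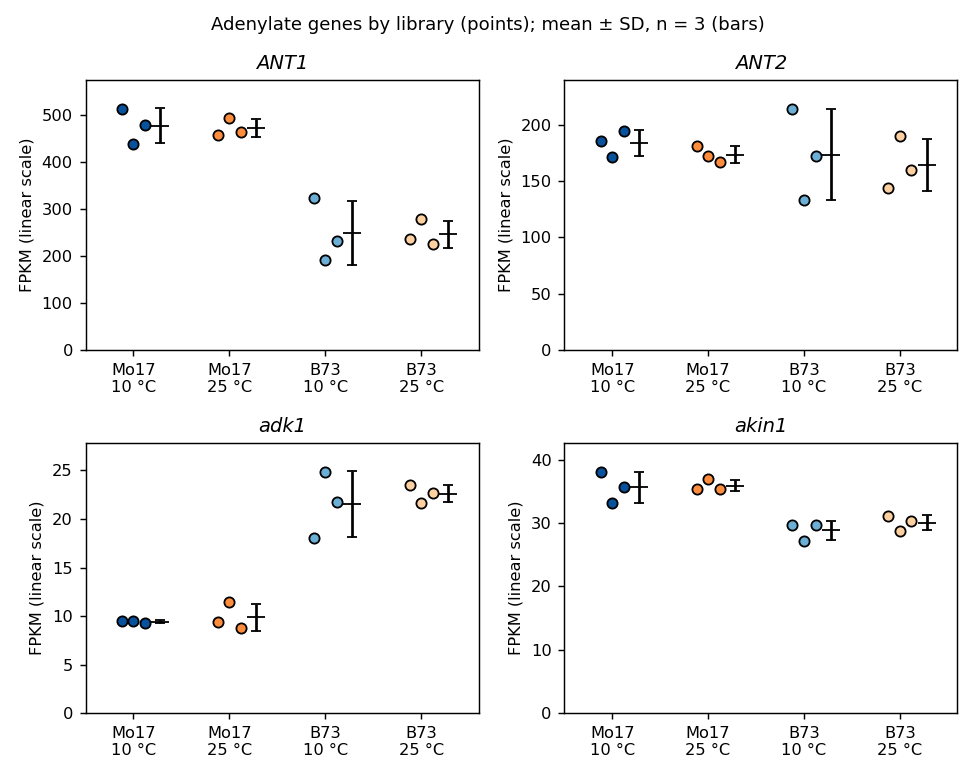
FPKM of ANT1, ANT2, adk1 and akin1 (y axes, linear and starting at 0, a scale for each gene) in the 12 libraries, by line and temperature (x axes). Points are libraries, and bars are the mean ± SD of 3 libraries. The Mo17 libraries lie above all B73 libraries in FPKM for ANT1 (438.6 to 513 FPKM in Mo17) and akin1 and below them for adk1, while for ANT2 the lines overlap. Of all tested genes, 60.5% at 10 °C and 69.7% at 25 °C had lines that did not overlap.

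The first question was whether the lines differ in these genes. 3 of the 4 did at both temperatures with libraries scaled by depth: ANT1 was 1.92-fold higher and adk1 2.29-fold lower in Mo17 than in B73, averaged over both temperatures, while akin1 was 1.22-fold higher, the smallest of the 3 differences, and one that was not called and changed sign with TMM factors. ANT1 was not called with quantile normalization (log2 difference 0.19 at 10 °C and 0.071 at 25 °C), and adk1 was called under every scaling. Quantile normalization sets a value by its rank within the library. By mean FPKM ANT1 ranked 5th or 6th of the 99 genes in every group, so that setting says little about a difference in its level. ANT2 was not called. Such differences were common in the table. At 10 °C 64.5%, at 25 °C 61.8% and in the mean of both temperatures 68.4% of the 76 tested genes passed the same threshold, an adjusted p under 0.05, so 3 of 4 is close to the background and is not a result about these genes as a group. Libraries of the lines did not overlap for the same 3 genes at each temperature, against 60.5% of tested genes at 10 °C and 69.7% at 25 °C. Per the submitters' processing notes the build was that of B73, so a difference in transcript level and a difference in how well Mo17 fragments match B73 sequence cannot be told apart here.

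ANT1 had 513, 438.6 and 477 FPKM in the 3 Mo17 libraries at 10 °C and 457, 493.9 and 464 FPKM in those at 25 °C. In B73 it had 323, 191 and 231 FPKM at 10 °C and 236, 278 and 224 FPKM at 25 °C. Every Mo17 library was above every B73 library, and the highest B73 value was that of B73 10 °C replicate 1. At 10 °C the mean was 476 ± 37.1 FPKM in Mo17 and 248 ± 67.7 FPKM in B73 (SD, n = 3 each), a log2 difference of 0.94 ± 0.16 (SE) (edgeR quasi-likelihood test, Benjamini-Hochberg adjusted p = 0.000431). At 25 °C the mean was 472 ± 19.6 FPKM in Mo17 and 246 ± 28.3 FPKM in B73, again a log2 difference of 0.94 ± 0.16 (SE; edgeR quasi-likelihood, adjusted p = 0.000435). The order of the group means was Mo17 10 °C, Mo17 25 °C, B73 10 °C and B73 25 °C, with a step between the lines only, since within a line the temperatures overlapped. Without B73 10 °C replicate 1 the log2 difference at 10 °C was 1.17.

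ANT2, the other carrier, did not separate the lines. It had 186, 172 and 194.5 FPKM in Mo17 at 10 °C and 182, 172 and 167 FPKM in Mo17 at 25 °C, against 214, 133.5 and 173 FPKM in B73 at 10 °C and 144, 189.8 and 160.0 FPKM in B73 at 25 °C. The B73 libraries spread on both sides of the Mo17 libraries at both temperatures. The log2 difference of Mo17 against B73 was 0.083 at 10 °C, with a 95% confidence interval of -0.25 to 0.42, and 0.077 at 25 °C, with an interval of -0.26 to 0.41 (adjusted p = 0.668 and 0.72, edgeR quasi-likelihood). A line difference of ANT2 as large as that of ANT1 thus lies outside these intervals, and its sign changed with the scaling of the libraries.

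Whether the carriers differ from each other in this respect was tested on the ratio of ANT1 to ANT2 within each library, which no scaling factor of a library can change. The FPKM ratio was 2.76, 2.56 and 2.45 in Mo17 at 10 °C and 2.52, 2.87 and 2.77 in Mo17 at 25 °C. In B73 it was 1.51, 1.43 and 1.34 at 10 °C and 1.64, 1.47 and 1.40 at 25 °C. All 6 Mo17 libraries had a higher ratio than all 6 B73 libraries. The ratio rests on the same libraries as the tests of ANT1 and ANT2 and is not independent of them. The members were also chosen with earlier results of these data known. The mean log2 ratio was 0.86 higher in Mo17, a 1.82-fold difference, and 0.005 was the smallest p that 400 permutations of the lines within each temperature can give (2-sided exact permutation test, p = 0.005, adjusted p = 0.01 over 2 tests of the ratio). It lay between 0.84 and 0.89 when any 1 library was left out. The call stayed each time, which the lack of overlap fixes in advance and which adds no support. As a share of the FPKM of both carriers, ANT1 made up 72.1% ± 1.21 in Mo17 at 10 °C and 73.1% ± 1.35 in Mo17 at 25 °C, against 58.7% ± 1.45 in B73 at 10 °C and 60.0% ± 1.91 in B73 at 25 °C (SD, n = 3 each).

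In B73 the ratio varied less between replicates than either carrier. In B73 at 10 °C the coefficient of variation over the 3 libraries was 27.3% for ANT1 and 23.3% for ANT2, but 5.95% for their ratio, and in both genes replicate 1 was the highest and replicate 2 the lowest. In B73 at 25 °C it was 11.5% for ANT1, 14.1% for ANT2 and 8.09% for the ratio. In Mo17 at 10 °C it was 7.80% for ANT1, 6.29% for ANT2 and 6.10% for the ratio, a similar spread. In Mo17 at 25 °C the ratio varied more, by 6.73%, than ANT1 at 4.15% and ANT2 at 4.28%, and the carriers ordered the replicates differently. The part of near-identical sequence was not tested: the carriers are paralogs, and fragments of sequence they share could have been divided between them in the authors' counting.

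Which carrier is the more abundant in B73 rests on the length used. By FPKM ANT1 was above ANT2 in all 12 libraries. By counts the ratio of ANT1 to ANT2 was 1.34 ± 0.081 in Mo17 at 10 °C and 1.40 ± 0.094 in Mo17 at 25 °C, but 0.735 ± 0.0437 in B73 at 10 °C and 0.775 ± 0.0627 in B73 at 25 °C (SD, n = 3 each). The length that turns counts into FPKM was 0.516 times as long for ANT1 as for ANT2, although the genes span 2946 and 3067 bases in the table. The difference of the ratio between lines is the same on either scale, since the lengths cancel.

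**Figure D2:**
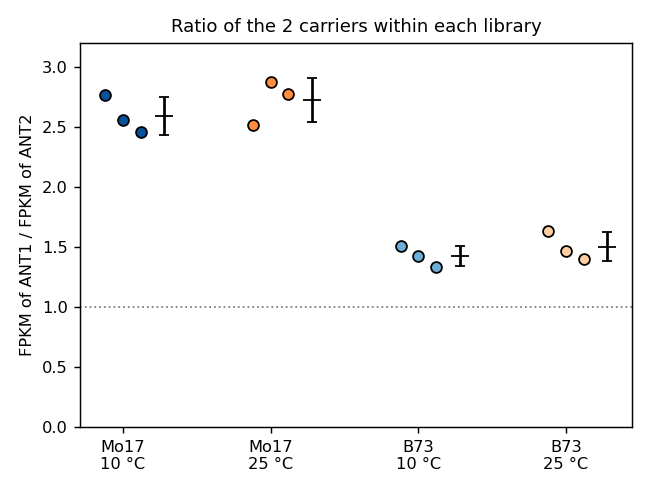
FPKM of ANT1 divided by FPKM of ANT2 in each library (y axis, linear, no unit) by line and temperature (x axis). Points are libraries, bars the mean ± SD of 3 libraries, and the dotted line marks equal FPKM. Mo17 libraries lie between 2.45 and 2.87 and B73 libraries between 1.34 and 1.64.

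adk1, an adenylate kinase by its symbol and annotation, was the member with the largest difference between the lines, and it was lower in Mo17. It had 9.53, 9.47 and 9.26 FPKM in Mo17 at 10 °C and 9.44, 11.4 and 8.78 FPKM in Mo17 at 25 °C. In B73 it had 18.1, 24.8 and 21.8 FPKM at 10 °C and 23.4, 21.7 and 22.7 FPKM at 25 °C. The lowest B73 library, B73 10 °C replicate 1, was still above the highest Mo17 library, and that same library was the highest of B73 for both carriers. The mean was 9.42 ± 0.142 FPKM in Mo17 and 21.6 ± 3.39 FPKM in B73 at 10 °C, and 9.89 ± 1.39 FPKM in Mo17 and 22.6 ± 0.898 FPKM in B73 at 25 °C (SD, n = 3 each). The log2 difference was -1.19 ± 0.14 (SE) at each temperature, with an adjusted p of 2.31e-05 at 10 °C and 1.83e-05 at 25 °C (edgeR quasi-likelihood, Benjamini-Hochberg). It was called under all 23 alternatives run at each temperature, between -1.52 and -1.0002 at 10 °C and between -1.45 and -1.11 at 25 °C.

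akin1, the βγ subunit, showed a small difference in the other direction. It had 38.0, 33.2 and 35.6 FPKM in Mo17 at 10 °C and 35.4, 36.9 and 35.4 FPKM in Mo17 at 25 °C, against 29.8, 27.1 and 29.6 FPKM in B73 at 10 °C and 31.0, 28.7 and 30.3 FPKM in B73 at 25 °C. The lines did not overlap, and the replicates varied by 2.41% to 6.81% in each group. The log2 difference was 0.31 ± 0.082 (SE) at 10 °C and 0.26 ± 0.082 (SE) at 25 °C (edgeR quasi-likelihood, adjusted p = 0.00754 and 0.0159). The median tested gene lay at 0.062 at 10 °C and 0.17 at 25 °C, and relative to that median akin1 was at 0.24 and 0.089. With TMM factors, which put the median at -0.26 at 10 °C and -0.087 at 25 °C, the difference of akin1 was -0.022 and -0.00037 and was not called. With median-ratio factors, which put it at -0.071 and 0.033, akin1 was at 0.17 and 0.12 and was not called, and with quantile normalization at 0.59 and 0.51 and was called. Quantile-normalized values follow ranks, and akin1 ranked 27th and 28th in Mo17 at 10 °C and 25 °C and 33rd in B73. The call at 25 °C was also lost without B73 25 °C replicate 2 (adjusted p = 0.0524) or Mo17 25 °C replicate 2 (adjusted p = 0.0519, edgeR quasi-likelihood).

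ANT1 and adk1 kept their directions under the same scalings. Relative to the median tested gene, ANT1 was 0.88 higher at 10 °C and 0.77 higher at 25 °C in Mo17, and adk1 lay at -1.26 and -1.36, all on the log2 scale. ANT1 was at 0.61 and 0.68 with TMM factors, both called, and at 0.19 and 0.071 with quantile normalization, where it was not called (limma, adjusted p = 0.447 and 0.792).

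**Figure D3:**
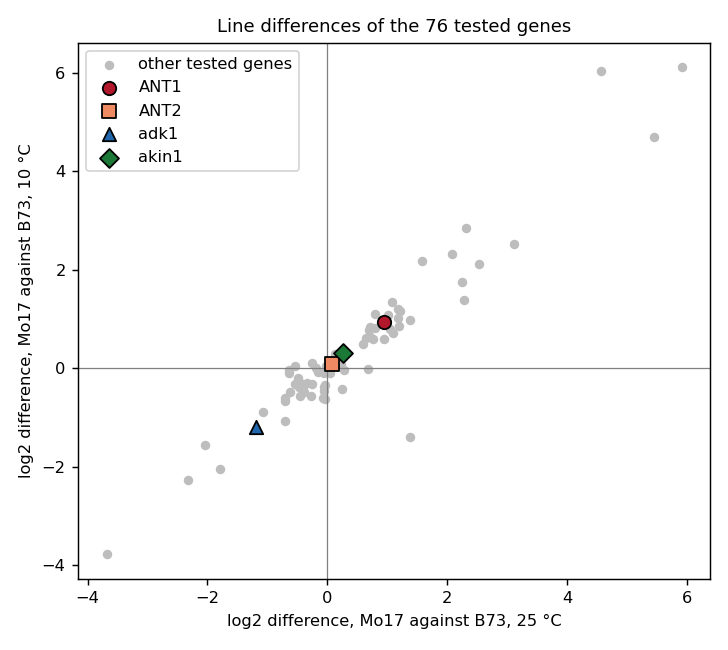
Log2 difference of Mo17 against B73 at 10 °C (y axis) and at 25 °C (x axis) for the 76 tested genes, with the 4 genes described here in colour and the others in grey. The comparisons share no library. ANT1 lies at 0.94 on both axes, adk1 at -1.19 on both, akin1 at 0.31 and 0.26 and ANT2 at 0.083 and 0.077 (the last 2 genes change sign with TMM factors), all within the range of the other genes.

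The second question was whether 10 °C changed these genes within 2 h of imbibition. None of the 4 was called in either line, where 1.32% of the tested genes were called in B73 and 2.63% in Mo17, nor in the mean of both lines, where 10.5% were (edgeR quasi-likelihood, Benjamini-Hochberg). No member had an unadjusted p under 0.05 in these contrasts, and DESeq2 and limma called none of them either. In Mo17, ANT1 averaged 476 ± 37.1 FPKM at 10 °C and 472 ± 19.6 FPKM at 25 °C (SD, n = 3 each), a log2 change of 0.014 with a 95% confidence interval of -0.34 to 0.37. In B73, its log2 change was 0.013 with an interval of -0.34 to 0.37, on means of 248 and 246 FPKM at 10 °C and 25 °C. The libraries of the temperatures overlapped for all 4 genes in each line, where 27.6% of the tested genes did not overlap in Mo17 and 13.2% in B73.

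For ANT2 the mean was 184 ± 11.6 FPKM at 10 °C and 174 ± 7.42 FPKM at 25 °C in Mo17, and 174 ± 40.5 FPKM at 10 °C and 165 ± 23.3 FPKM at 25 °C in B73 (SD, n = 3 each). Its log2 change was 0.083 in Mo17, with an interval of -0.25 to 0.42, and 0.077 in B73, with an interval of -0.26 to 0.41. That of adk1 was -0.069 in Mo17, within -0.37 to 0.23, and -0.067 in B73, within -0.36 to 0.23. That of akin1 was -0.012 in Mo17 and -0.059 in B73, with the narrowest intervals of the 4, -0.19 to 0.17 and -0.24 to 0.12. Averaging the lines narrowed the intervals to -0.24 to 0.27 for ANT1, -0.16 to 0.32 for ANT2, -0.28 to 0.14 for adk1 and -0.16 to 0.092 for akin1. Changes within these bounds remain compatible with these data.

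The ratio of ANT1 to ANT2 was also close at both temperatures. It averaged 2.59 ± 0.158 at 10 °C and 2.72 ± 0.183 at 25 °C in Mo17, and 1.42 ± 0.0847 at 10 °C and 1.502 ± 0.122 at 25 °C in B73 (SD, n = 3 each). Permuting the temperatures within each line gave a mean log2 change of the ratio of -0.073 (2-sided exact permutation test, p = 0.21, adjusted p = 0.21 over 2 tests of the ratio).

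The cold changes in B73 rested in part on B73 10 °C replicate 1. That library had the highest ANT1, the highest ANT2 and the lowest adk1 of all B73 libraries. Without it, the log2 change at 10 °C in B73 was -0.22 for ANT1, -0.10 for ANT2 and 0.045 for adk1, turned in sign, and -0.082 for akin1, and none of these was called (edgeR quasi-likelihood, adjusted p from 0.416 to 0.985).

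**Figure D4:**
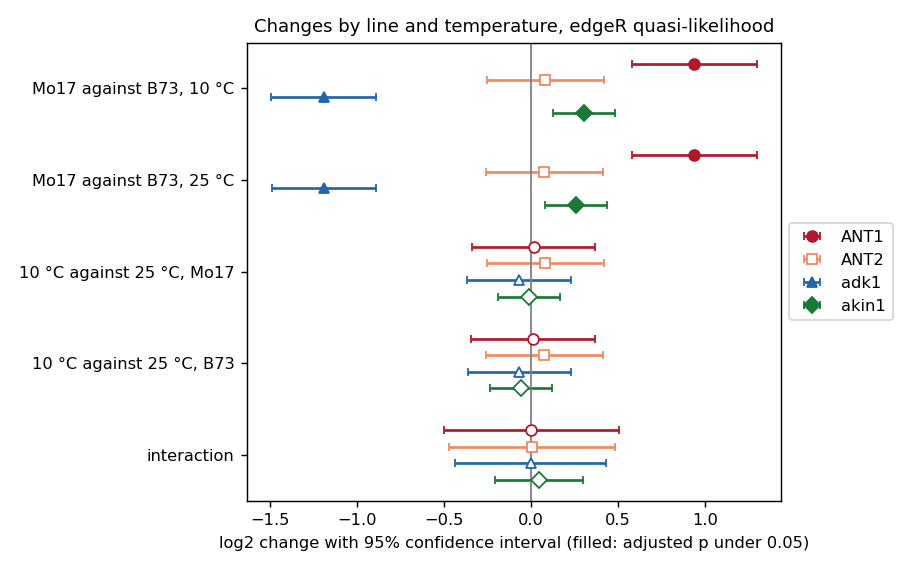
Log2 changes of the 4 genes (x axis) with 95% confidence intervals for the contrasts of line, temperature and their interaction (y axis), from the edgeR quasi-likelihood fit on 12 libraries. Filled symbols have an adjusted p under 0.05. ANT1, adk1 and akin1 are filled in both line contrasts (akin1 changes sign and is not called with TMM factors, and ANT1 is not called with quantile normalization), and all symbols of the temperature contrasts and the interaction are open and close to 0.

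The third question was whether the lines responded differently to 10 °C. The interaction, the log2 change at 10 °C in Mo17 minus that in B73, was 0.00096 for ANT1, 0.0062 for ANT2, -0.0020 for adk1 and 0.047 for akin1. Its 95% confidence intervals were wider than those of the single contrasts, -0.50 to 0.50 for ANT1, -0.47 to 0.48 for ANT2, -0.44 to 0.43 for adk1 and -0.21 to 0.30 for akin1. None was called, and 0% of the 76 tested genes were (edgeR quasi-likelihood, Benjamini-Hochberg, adjusted p of 0.432 or more; before adjustment 6 genes were under 0.05). DESeq2 and limma on log2 FPKM without quantile normalization called none either, while quantile normalization called 2 genes, neither of them one of the 4. Differences in the cold response within these bounds remain compatible with these data.

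Other energy genes of the table were taken from lists by symbol or description, and their counts stand beside the same shares of all 76 tested genes, 64.5% called between the lines at 10 °C and 61.8% at 25 °C, and 10.5% with temperature in the mean of both lines. Of 5 tested genes of glycolysis and fermentation, 4 were higher and 1 was lower in Mo17 at each temperature. Among the higher ones, aldh5 was at most 0.51 FPKM in B73 and passed the filter only through Mo17. Within a line, 1.32% of all tested genes were called with temperature in B73 and 2.63% in Mo17. Of the 5 genes, 1 was lower at 10 °C in B73, 0 were called in Mo17, and 3 were lower in the mean of both lines. Without B73 10 °C replicate 1 these counts were 0 in B73 and 2 in the mean, with ald1 in B73 at an adjusted p of 0.0545, against 0.0499 with it (edgeR quasi-likelihood). The 3 were ald1, the glycolytic aldolase, at a log2 change of -0.89 ± 0.16 (SE), adh1, a fermentative alcohol dehydrogenase, at -0.75 ± 0.15 (SE), and aldh2, a mitochondrial aldehyde dehydrogenase, at -0.51 ± 0.14 (SE; adjusted p = 0.00542, 0.00968 and 0.032, edgeR quasi-likelihood). The median of the list in that contrast was -0.67, against -0.011 for ANT1, ANT2, adk1 and akin1 and -0.025 for all tested genes, and the difference between the lists was not tested.

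Of 3 alternative oxidases, which pass electrons to oxygen without the pumping of the cytochrome pathway and so lower the yield of ATP, 2 were tested. aox1 was higher in Mo17 at a log2 difference of 4.70 ± 0.69 (SE) at 10 °C and 5.45 ± 0.71 (SE) at 25 °C, and aox1_1 was lower at -3.78 ± 0.26 and -3.67 ± 0.26 (SE; adjusted p from 4.71e-07 to 0.000116, edgeR quasi-likelihood). aox1 was at 6.83 to 32.25 FPKM in Mo17 and at most 0.72 FPKM in B73. aox1_1 was at 6.09 to 9.38 FPKM in B73 and at most 0.76 FPKM in Mo17. Each passed the filter only through the line where it was high, so the size of its difference rests on values below 1 FPKM. Neither was called with temperature. Of 4 tested genes of ADP-glucose and starch synthesis, which draws on ATP, 2 were higher and 1 was lower in Mo17 at each temperature, and 0 were called with temperature; 3 of 4 called between lines is close to the share of all tested genes. AGPLS3 and ae1_1 were the higher ones and Agpsemzm the lower one. ae1_1 was at most 0.70 FPKM in B73 and passed the filter only through Mo17. No tested gene other than the members came from the lists of adenine nucleotide enzymes and of SNF1-type kinases: aprt1, an adenine phosphoribosyltransferase that salvages adenine to AMP, was at 0.53 FPKM or less in every library and was not tested.

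Among the annotated genes of purine metabolism, chosen after their values were seen, adss1 was the other tested one. Its symbol is that of adenylosuccinate synthetase, an enzyme on the way to AMP, while the table describes it as unknown and gives it terms of glutathione transfer. It averaged 124 ± 17.1 FPKM in Mo17 and 101 ± 18.4 FPKM in B73 at 10 °C, and 126 ± 7.74 FPKM in Mo17 and 115 ± 15.3 FPKM in B73 at 25 °C (SD, n = 3 each). It was not called between the lines, at log2 differences of 0.30 ± 0.15 and 0.13 ± 0.15 (SE; adjusted p = 0.108 and 0.5, edgeR quasi-likelihood).

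The genes most like each member over the 12 libraries were found by the root mean square difference of log2(FPKM + 1), each gene centred on its own mean, among 54 other genes with a mean of at least 5 FPKM. For ANT1 they were aos1, an allene oxide synthase, ACC1, an acetyl-CoA carboxylase, and abp1, an auxin-binding protein, at 0.18, 0.19 and 0.21, where the median of the 54 was 0.63. For ANT2 they were ARF16, an auxin response factor, akin1 and aprl3, a gene named after adenosine phosphosulfate reductase, at 0.15, 0.19 and 0.22, with a median of 0.39. For adk1 they were ache1, with a cholinesterase term, a4, a glycosyltransferase, and aprl4, named like aprl3, at 0.22, 0.23 and 0.36, with a median of 0.65. For akin1 they were a4Lea, a fucosyltransferase, apx2, an ascorbate peroxidase, and AGP2, a large subunit of ADP-glucose pyrophosphorylase, at 0.15, 0.15 and 0.16, with a median of 0.37. The medians were lower for ANT2 and akin1 than for ANT1 and adk1, and no test was made of these likenesses.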

How the data were processed

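Polyadenylated RNA of embryos was sequenced in pairs on an Illumina NovaSeq from libraries that keep the strand, per the labels' protocols. In the submitters' processing notes stand StringTie 1.3.4d, HISAT2 2.0.4, cutadapt 1.9, DESeq2, edgeR and the build B73 RefGen_v4, without roles. Nothing used here says if strand entered the counting. The deposited table holds a count and an FPKM per gene and library, both made by the authors. No deposited count is 1 or 2 and 4 occurs 19 times, so a fragment appears to be worth several counts, and no counting intervals are given.

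Library sizes were made proportional to the depth recovered from count over FPKM (48 genes, agreement within 0.374%). Genes with at least 1 FPKM in at least 3 libraries were kept. edgeR 4.0.16 in R 4.3.3 fitted 4 group means on 12 libraries, with Benjamini-Hochberg adjustment over 76 genes and a threshold of 0.05. Standard errors are the log2 change without a prior count over the square root of F, and intervals use them. The p-values rest on the spread between biological replicates within groups. For each gene it was estimated over all 4 groups together and moderated over the tested genes, not taken from the groups compared alone. limma 3.58.1 and DESeq2 1.42.0 served as alternatives, beside other scalings, pseudocounts (0.1 and 1), filters, a replicate block, each library left out, and, added after the data were seen, counts divided by 4. Genes named beside the members were the 3 most alike in pattern and, from lists of energy genes, up to 3 called with the smallest p. All 4 members matched RefSeq's table of a later B73 assembly, used for chromosome numbers. The members and lists were chosen with earlier results of these data known.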

Additional observations from a re-analysis of the deposited data

How the results depend on the processing

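The line differences of adk1 were called under every alternative run, and that of ANT1 under all but quantile normalization. That setting goes by rank, and gave ANT1 a log2 difference of 0.19 at 10 °C, 0.071 at 25 °C and 0.13 in the mean. That of akin1 turned with TMM factors to -0.022 at 10 °C, -0.00037 at 25 °C and -0.011 in the mean, and was 0.17 at 10 °C and 0.12 at 25 °C with median-ratio factors, not called. Leaving out 1 library kept ANT1 between 0.78 and 1.17 at 10 °C and 0.88 and 1.04 at 25 °C, and akin1 between 0.26 and 0.35 and between 0.23 and 0.28, with the call lost for akin1 at 25 °C without replicate 2 of Mo17 or of B73 at 25 °C. Under the alternatives run, no cold change or interaction of the 4 genes and no line difference of ANT2 was called, and the sign changes given next are of such uncalled values. The cause of these changes was not tested.

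For ANT2 against line, TMM, median-ratio and quantile scaling gave -0.25, -0.044 and -0.080 at 10 °C, -0.19, -0.056 and -0.080 at 25 °C, and -0.22, -0.050 and -0.080 in the mean. For the cold change of ANT1 in B73, limma on log2(FPKM + 0.1) and + 1 both gave -0.015, quantile normalization -0.0021 and the replicate block -0.0044, and in the mean of lines limma gave -0.0017 with either pseudocount. For adk1, median-ratio factors gave 0.0089 in B73, 0.0068 in Mo17 and 0.0079 in the mean, and quantile normalization 0.12 in Mo17 and 0.0015 in the mean. For akin1, TMM gave 0.0097 in B73, median-ratio factors 0.013 in B73, 0.065 in Mo17 and 0.039 in the mean, and quantile normalization 0.077 in Mo17 and 0.038 in the mean. The interaction turned with TMM for ANT1 (-0.069), ANT2 (-0.063) and akin1 (-0.022), and for adk1 with limma (0.018 with a pseudocount of 0.1 and 0.019 with 1), quantile normalization (0.24) and the replicate block (0.015).

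With each library left out in turn, the cold change of ANT1 ran from -0.22 to 0.17 in B73, -0.042 to 0.070 in Mo17 and -0.10 to 0.092 in the mean, and its interaction from -0.16 to 0.24. For ANT2 the cold change ran from -0.10 to 0.23 in B73 and -0.010 to 0.16 in the mean, the interaction from -0.15 to 0.19, and the line difference from -0.075 to 0.26 at 10 °C and -0.011 to 0.19 at 25 °C. For adk1 they were -0.18 to 0.045 in B73, -0.15 to 0.048 in Mo17 and an interaction of -0.11 to 0.12. For akin1 they were -0.062 to 0.036 in Mo17 and an interaction of -0.0031 to 0.095.

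Over all 76 genes, the 1 call with cold in B73 became 0 with TMM and with median-ratio factors, 2 with DESeq2, with only the 6 libraries compared and with the replicate block, and 0 to 2 without 1 library. The 2 calls in Mo17 became 9 with DESeq2, 4 with median-ratio factors, 0 with only the 6 libraries compared, 1 with the replicate block and 0 to 5 without 1 library. Quantile normalization gave 4 calls in place of 8 in the mean of both lines and 2 in place of 0 for the interaction. The split of higher and lower calls between lines, 28 and 21 at 10 °C and 28 and 19 at 25 °C, became 22 and 32, and 26 and 27, with TMM, and 21 and 21, and 18 and 23, with quantile normalization. Samples share a replicate number only: deviations of same-numbered libraries correlated from -0.43 to 0.44, and the replicate block changed no call of a member. The scale of the counts is not known, so depth sets no stated limit. Differences inside the printed intervals remain compatible with the data of 3 replicates per group.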

Other observations

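Ratios between the adenylate kinase, the βγ subunit and the carriers were formed after the values were seen and were not tested. The FPKM of akin1 was 3.50 to 3.99 times that of adk1 in Mo17 at 10 °C and 3.23 to 4.03 times in Mo17 at 25 °C, against 1.09 to 1.65 times in B73 at 10 °C and 1.32 to 1.34 times in B73 at 25 °C. The FPKM of ANT1 was 46.3 to 53.8 times that of adk1 in Mo17 at 10 °C and 43.2 to 52.8 times in Mo17 at 25 °C, against 7.69 to 17.9 times in B73 at 10 °C and 9.89 to 12.8 times in B73 at 25 °C. No scaling factor of a library can change these ratios, but quantile normalization, which goes by rank, can. For both the lines did not overlap, which the values of the single genes fix in advance and which adds no support. ANT1 and akin1 were higher and adk1 was lower in every Mo17 library than in every B73 library. Within a temperature, the lines did not overlap for 60.5% of the tested genes at 10 °C and 69.7% at 25 °C. Such a separation is thus common in the table and not a trait of these genes. The FPKM of akin1 relative to that of ANT2 overlapped between the lines, at 0.183 to 0.205 in Mo17 and 0.139 to 0.203 in B73 at 10 °C, and 0.195 to 0.215 in Mo17 and 0.151 to 0.216 in B73 at 25 °C.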
